A study of Mus musculus with 9 samples.

Results

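Transcript levels of 10 genes of angiopoietin and vascular endothelial growth factor (VEGF) signalling were described in mouse cardiac ventricles. The genes are the angiopoietins Angpt1 and Angpt2, their receptors Tek and Tie1, the VEGF ligands Vegfa, Vegfb and Vegfc, and the VEGF receptors Kdr, Flt1 and Flt4. They were taken by symbol from a deposited table of 24391 genes, and all 10 have a row in it. They were selected on values of these libraries, the differences between the same 3 groups in this table, so their levels and differences are given as a description, with no p-value. Each group held 3 libraries of total RNA from C57BL/6 mice. Stabilized beta-catenin ventricles came from 15-week-old mice positive for alphaMHC Cre recombinase whose beta-catenin gene had lost exon 3, which yields a stabilized protein. P6 ventricles came from wild-type pups of postnatal day 6. Adult control ventricles came from 15-week-old mice that carried the same Cre recombinase and an unaltered beta-catenin gene. The alphaMHC promoter drives the recombinase in cardiomyocytes, not in the endothelial cells that carry these receptors. P6 differs from both adult groups in age, in the Cre recombinase and in being a separate set of libraries, since the labels mark both adult groups as a re-analysis, and these differences cannot be told apart. The labels do not say that the libraries come from separate animals, so every p-value here measures the spread between libraries.

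VEGF-A, the main attractant and survival factor of endothelial cells, acts through the receptor tyrosine kinase VEGFR-2 (Kdr), while VEGFR-1 (Flt1) binds VEGF-A and VEGF-B and acts largely as a decoy for VEGF-A. VEGF-C signals through VEGFR-3 (Flt4), known from lymphatic vessels and from growing blood capillaries. Angiopoietin 1 activates the endothelial receptor TIE2 (Tek) and holds vessels quiescent and tight, angiopoietin 2 is a context-dependent antagonist released by endothelial cells, and TIE1 is a related receptor that modulates TIE2. In the heart cardiomyocytes are a source of VEGF-A and VEGF-B, and the capillary bed grows along with the muscle after birth.

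Assigned reads came to between 14965316 and 23236129 in stabilized beta-catenin libraries, 7467551 and 7913057 in P6 libraries, and 15234366 and 21568022 in adult control libraries. The Wnt target Axin2 stood at 633 ± 129 normalized counts with stabilized beta-catenin, 60.1 ± 2.04 at P6 and 77.1 ± 22.8 in adult control (mean ± SD, n = 3 each). Stabilized beta-catenin differed from adult control in Axin2 by 3.05 on the log2 scale (SE 0.26, limma adjusted p = 0.00189), whereas Ctnnb1 itself, counted over the whole gene, stood at 8045 ± 387 with stabilized beta-catenin and 7842 ± 458 in adult control. Markers of cardiomyocytes, endothelium, mural cells, fibroblasts and macrophages were all present. Adult control library 1 stood apart from its group, and not in a single direction. The endothelial cadherin Cdh5 had 1395 normalized counts there against 3862 and 2808 in adult control libraries 2 and 3. The endothelial markers Egfl7 (1524 against 1316 and 731) and Fli1 (659 against 477 and 493) were higher there. Such genes were named after their values were seen. Calls of the 10 genes that depend on adult control library 1 are given with and without it. Without it Axin2 at P6 passed as lower than in adult control (log2 difference -0.58, and -0.31 with it).

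Angpt1 had the widest range of all 10 genes. The deposited table gave 4055, 2550.0 and 4790.4 normalized counts of Angpt1 in stabilized beta-catenin libraries 1 to 3, 163, 217 and 229 in P6 libraries and 1318, 529.8 and 721 in adult control libraries. The 3 groups did not overlap: each stabilized beta-catenin library lay above each adult control library, and each P6 library lay below all the adult ones. Group means were 3799 ± 1142 with stabilized beta-catenin, 203 ± 35.0 at P6 and 856 ± 411 in adult control (SD, n = 3 libraries). On the scale of log2(normalized count + 1), the difference was 2.21 (SE 0.35) for stabilized beta-catenin over adult control, or 4.61-fold. For P6 over adult control it was -1.98 (SE 0.30), and for stabilized beta-catenin over P6 it was 4.19 (SE 0.21), or 18.2-fold. Angpt1 in the P6 libraries rested on 119, 150 and 154 reads. The first of these differences passed limma's threshold over all genes with all libraries in and not without adult control library 3 (log2 fold change 2.13), stabilized beta-catenin library 1 (2.13) or stabilized beta-catenin library 3 (2.01). Angpt1, on chromosome 15, shares 737 of its 5205 exon bases with the antisense gene Gm17473, and the strand setting of the counting is not given in the sources used here, so reads of both cannot be told apart there. The other 9 genes overlap no other gene's exons in GENCODE M21. In bulk tissue fewer cells of a type and less RNA per cell cannot be told apart, which holds for every value here.

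Angpt2 was scarce in all groups. Its values were 75.2, 52.2 and 48.0 normalized counts with stabilized beta-catenin, 49.3, 57.8 and 53.5 at P6 and 91.7, 75.8 and 56.9 in adult control. The 3 groups overlapped, and at P6 these values rest on 36 to 40 reads per library. Log2 differences were -0.35 (SE 0.25) for stabilized beta-catenin over adult control, -0.45 (SE 0.22) for P6 over adult control, which passed the threshold only without adult control library 3 (-0.63), and 0.10 (SE 0.21) for stabilized beta-catenin over P6, where the sign turned without stabilized beta-catenin library 1 (-0.09) and with total-count scaling (-0.30).

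Of the VEGF ligands, Vegfb separated P6 from the adult groups and Vegfa did not separate P6 from adult control. Vegfb, whose product binds VEGFR-1 and is known in heart muscle, stood at 1768, 1385 and 1644 normalized counts with stabilized beta-catenin, 847, 1006 and 1031 at P6 and 1711, 2196 and 2211 in adult control. Every P6 library lay below every adult library, while the highest stabilized beta-catenin library reached above the lowest adult control library. The means were 1599 ± 195, 961 ± 99.7 and 2039 ± 284 in stabilized beta-catenin, P6 and adult control ventricles (SD, n = 3 each). The log2 difference of Vegfb was -0.35 (SE 0.16) for stabilized beta-catenin over adult control, -1.08 (SE 0.14) for P6 over adult control and 0.73 (SE 0.11) for stabilized beta-catenin over P6.

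Vegfa stood at 2346, 2977 and 2285 normalized counts with stabilized beta-catenin, 4178, 3342 and 3101 at P6 and 3963, 3151 and 2942 in adult control. The P6 and adult control ranges lay almost on top of each other, and all stabilized beta-catenin libraries lay below all P6 libraries. Only stabilized beta-catenin library 2 reached into the adult control range, by a narrow margin. Vegfa differed by -0.40 (SE 0.17) on the log2 scale between stabilized beta-catenin and adult control, by 0.08 (SE 0.16) between P6 and adult control and by -0.48 (SE 0.13) between stabilized beta-catenin and P6. The sign of the P6 difference was not fixed: it was -0.02 with TMM factors, -0.05 without P6 library 1, -0.01 without adult control library 3 and 0.51 with total-count scaling. Vegfc stayed low, at 86.2, 146 and 124 normalized counts with stabilized beta-catenin, 159, 136 and 157 at P6 and 134, 114 and 115 in adult control. P6 libraries lay just above all adult control libraries, and the stabilized beta-catenin libraries reached into both ranges. The Vegfc log2 difference was -0.06 (SE 0.21) for stabilized beta-catenin over adult control, turning to 0.02 without adult control library 1 and to 0.15 without stabilized beta-catenin library 1. It was 0.31 (SE 0.15) for P6 over adult control, which passed the threshold without adult control library 1 (0.39) and with total-count scaling (0.74), and -0.37 (SE 0.19) for stabilized beta-catenin over P6, which passed without stabilized beta-catenin library 2 (-0.54) and with total-count scaling (-0.78).

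**Figure D1:**
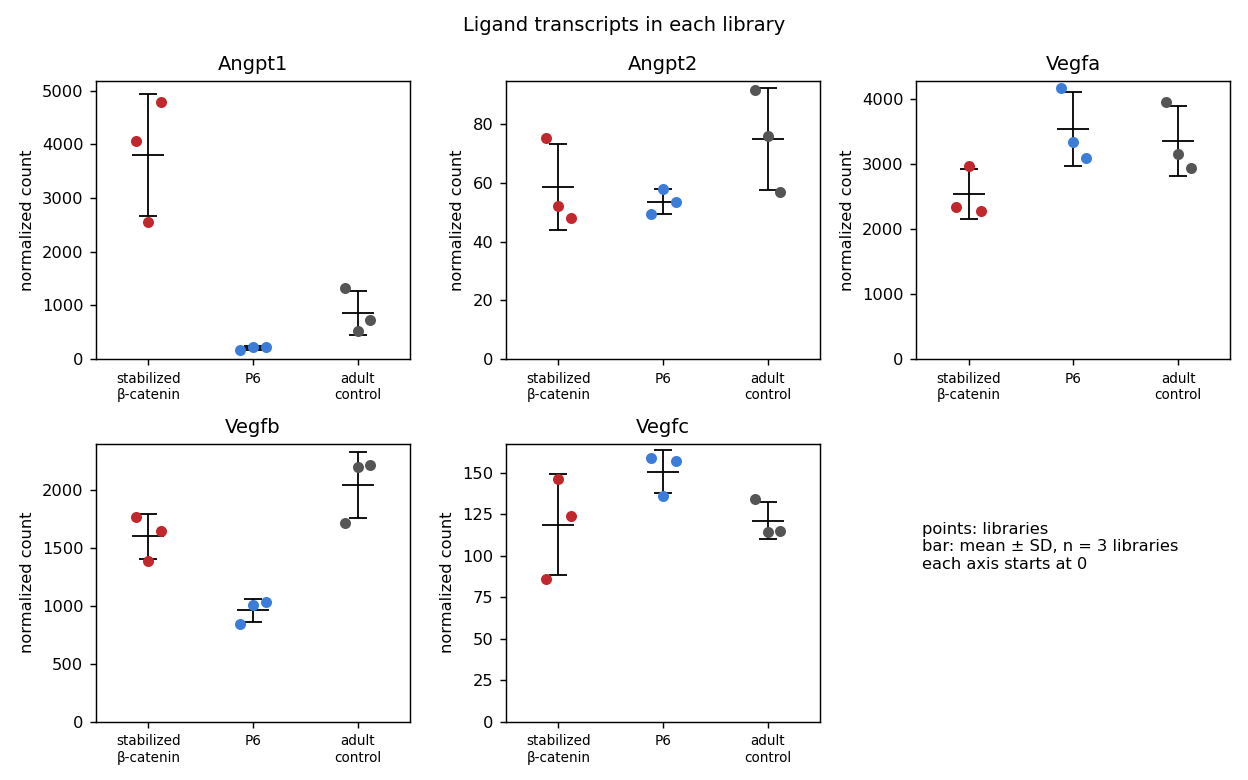
Normalized counts (vertical axis, linear, from 0) of the 5 ligand genes in each of the 9 libraries, by group; points are libraries and bars the mean ± SD of 3. Angpt1 separates all 3 groups, with 2550.0 or more in stabilized beta-catenin libraries and 229 or less at P6, and Vegfb at P6 lies below both adult groups.

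The angiopoietin receptors were highest at P6. Tek, which encodes TIE2, stood at 1044, 1352 and 1231 normalized counts with stabilized beta-catenin, 1841, 1909 and 1657 at P6 and 1359.9, 1423 and 1249 in adult control. All P6 libraries lay above all adult libraries, and both adult groups overlapped. The means were 1209 ± 155, 1802 ± 130.2 and 1344 ± 88.5 with stabilized beta-catenin, at P6 and in adult control (SD, n = 3 each). Tek differed by -0.16 (SE 0.14) between stabilized beta-catenin and adult control, by 0.42 (SE 0.12) between P6 and adult control and by -0.58 (SE 0.11) between stabilized beta-catenin and P6, on the log2 scale. The P6 difference passed the threshold with all libraries in and not without P6 library 1 (0.41) or P6 library 2 (0.38).

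Tie1 followed the same order with wider gaps. It stood at 953, 1237 and 1133 normalized counts with stabilized beta-catenin, 2503, 2252 and 2106 at P6 and 1376, 1681 and 1192 in adult control. P6 lay above every adult library, and adult control library 3 lay inside the stabilized beta-catenin range. For Tie1 the log2 differences were -0.35 (SE 0.17) for stabilized beta-catenin over adult control, 0.70 (SE 0.15) for P6 over adult control and -1.05 (SE 0.11) for stabilized beta-catenin over P6.

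Kdr had the widest range among the receptors. Its values were 1529.5, 2633 and 2231 normalized counts with stabilized beta-catenin, 5665, 5351 and 5209.9 at P6 and 2596, 3990.4 and 2767 in adult control. Each P6 library lay above every adult library, and stabilized beta-catenin library 2 lay just above the lowest adult control library. Mean levels were 2131 ± 559 with stabilized beta-catenin, 5408 ± 233 at P6 and 3118 ± 760.3 in adult control (SD, n = 3 each). Kdr differed by -0.56 (SE 0.24) on the log2 scale between stabilized beta-catenin and adult control. It differed by 0.82 (SE 0.17), or 1.77-fold, between P6 and adult control, and by -1.38 (SE 0.17) between stabilized beta-catenin and P6, a level 2.60-fold lower with stabilized beta-catenin.

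Flt1, the VEGF-binding receptor with decoy function, did not follow Kdr. It stood at 1789, 1748 and 2003.5 normalized counts with stabilized beta-catenin, 1791, 1671 and 1408 at P6 and 1139.9, 3416 and 2658 in adult control. Adult control library 1 lay below all other libraries while adult control libraries 2 and 3 lay above them, so the adult control range enclosed both other groups. The Flt1 log2 difference was -0.24 (SE 0.35) for stabilized beta-catenin over adult control, -0.71 without adult control library 1 and 0.08 without adult control library 2. It was -0.43 (SE 0.35) for P6 over adult control and -0.90 without adult control library 1. With adult control library 1 left out, both differences passed limma's threshold. Between stabilized beta-catenin and P6 the difference of Flt1 was 0.19 (SE 0.11), with 0.29 under TMM factors, past the threshold, and -0.22 under total-count scaling.

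Flt4, the receptor of VEGF-C, stood at 259.6, 303 and 315 normalized counts with stabilized beta-catenin, 657, 640.3 and 533 at P6 and 255, 566 and 337 in adult control. The P6 libraries lay above all stabilized beta-catenin libraries, and adult control library 2 lay inside the P6 range. Flt4 differed by -0.32 (SE 0.27) between stabilized beta-catenin and adult control, by 0.73 (SE 0.26) between P6 and adult control and by -1.06 (SE 0.12) between stabilized beta-catenin and P6, all on the log2 scale. The P6 difference from adult control passed the threshold in 10 of 17 alternatives. It did not pass without P6 library 1 (0.68), P6 library 2 (0.70), P6 library 3 (0.83) or adult control library 3 (0.67), nor with edgeR (0.61), TMM factors (0.64) or limma without trend.

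**Figure D2:**
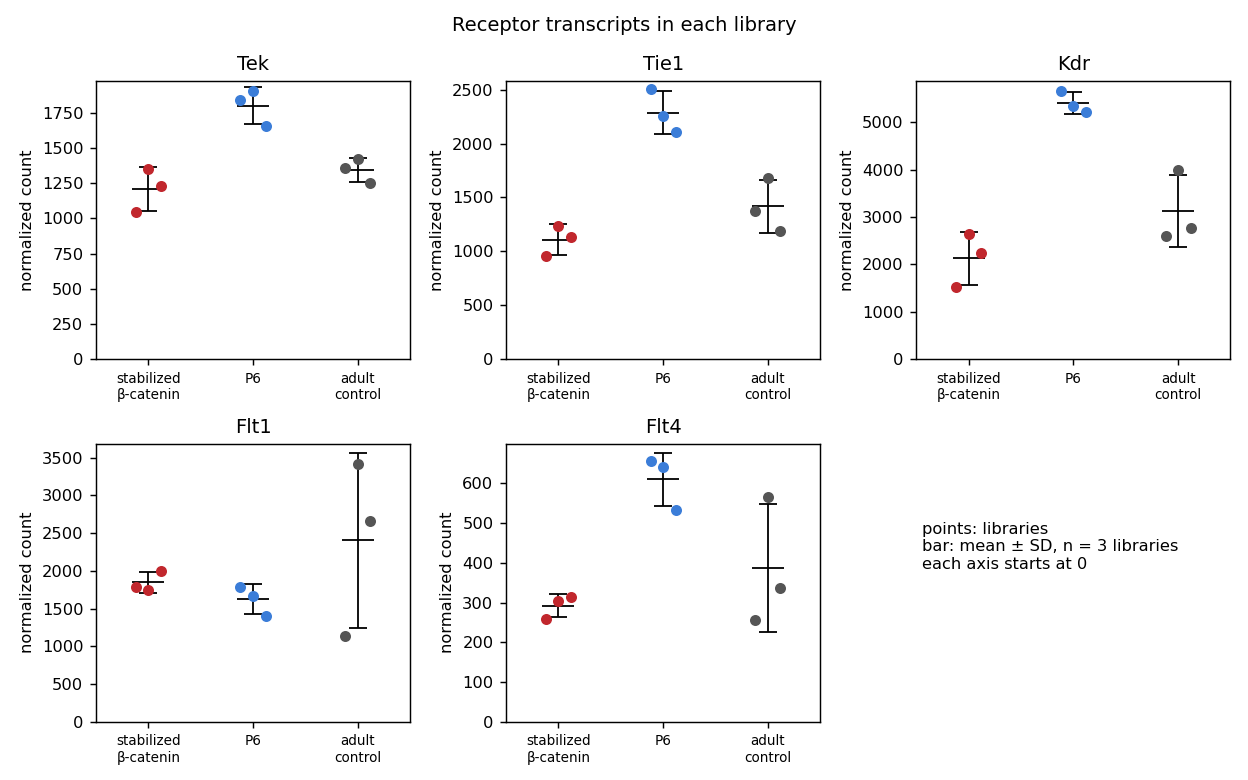
Normalized counts (vertical axis, linear, from 0) of the 5 receptor genes in each of the 9 libraries, by group; points are libraries and bars the mean ± SD of 3. The P6 libraries lie above both adult groups for Tek, Tie1 and Kdr, and adult control library 1 is the lowest of all libraries for Flt1, at 1139.9.

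Promoter sequence is shown for 3 receptors that were higher at P6, Tek, Tie1 and Flt4, and for a ligand that was lower there, Vegfb. The sequences are from RefSeq on GRCm38.p6 and cover the 250 bases upstream of the annotated start, 5′ to 3′ on the strand of the gene. Capitals mark GGAAG and its reverse complement CTTCC, a core bound by ETS factors, the family of endothelial regulators that includes Erg and Fli1. The window of Tek lies at chr4:94739039-94739288 on the plus strand, that of Tie1 at chr4:118489850-118490099 on the minus strand, Flt4 at chr11:49609429-49609678 on the plus strand and Vegfb at chr19:6987652-6987901 on the minus strand.
Tek: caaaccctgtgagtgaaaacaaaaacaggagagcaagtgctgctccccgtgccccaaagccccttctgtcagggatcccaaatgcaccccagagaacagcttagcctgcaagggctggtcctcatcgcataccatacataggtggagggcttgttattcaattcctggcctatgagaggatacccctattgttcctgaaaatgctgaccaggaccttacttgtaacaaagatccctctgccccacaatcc
Tie1: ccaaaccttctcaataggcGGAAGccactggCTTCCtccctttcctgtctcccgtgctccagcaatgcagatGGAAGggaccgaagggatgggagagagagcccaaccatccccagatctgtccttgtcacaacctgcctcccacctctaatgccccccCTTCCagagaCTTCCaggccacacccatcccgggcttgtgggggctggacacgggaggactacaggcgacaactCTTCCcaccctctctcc
Flt4: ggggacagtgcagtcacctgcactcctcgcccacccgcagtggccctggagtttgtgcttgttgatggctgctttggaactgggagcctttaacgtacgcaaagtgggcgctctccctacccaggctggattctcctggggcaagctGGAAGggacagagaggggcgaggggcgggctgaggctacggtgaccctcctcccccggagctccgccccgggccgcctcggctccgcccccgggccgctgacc
Vegfb: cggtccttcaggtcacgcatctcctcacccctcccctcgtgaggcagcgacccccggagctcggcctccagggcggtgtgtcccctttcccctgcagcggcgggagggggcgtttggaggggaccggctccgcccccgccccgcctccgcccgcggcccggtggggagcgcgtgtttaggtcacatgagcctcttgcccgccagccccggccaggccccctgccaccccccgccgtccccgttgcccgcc
The Tek window held 0 matches to GGAAG or CTTCC in full, the Tie1 window 6, the Flt4 window 1 and the Vegfb window 0. Receptors higher at P6 were thus found with and without a match. Shorter runs such as GGAA or TTCC were not counted, and TTCC is present in the Tek window. RefSeq gave such windows for 8 of the 10 genes (9 windows, of which 2 are of Vegfa), and 5 genes had at least 1 match to GGAAG, namely Tie1, Kdr, Flt1, Flt4 and Vegfa. Of all 32851 windows of the same length, 64.1% held this core on either strand. ACGTG, the core of the hypoxia response element, was found in 1 gene, Vegfa, and in 16.6% of all windows. The match is in the window of a second annotated start, at chr17:46025164-46025413 on the minus strand. That window lies downstream of the first start on the strand of the gene, and the window of the first start held 0. CTTTGA, a core of the TCF/LEF sites through which beta-catenin acts, was found in 0 of the 8 genes and in 13.8% of all windows. The motifs do not overlap each other in sequence, a match describes letters in this window and not a site, and no match says nothing about a factor.

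Adult ventricles with stabilized beta-catenin had more Angpt1 than adult control and lower mean levels of all 9 other genes. Of the 10 genes, 1 passed the threshold of limma's all-gene fit as higher and 0 as lower, where 1.49% of all 12971 genes tested passed as higher, 0.308% as lower and 1.8% in either direction. Without the adjustment, 2 of the 9 lower genes had p under 0.05, and edgeR and DESeq2 also gave 1 higher and 0 lower. The groups did not overlap for 1 gene, Angpt1, and for 19% of all genes. The median log2 difference over the 10 genes was -0.34, and over all genes it was -0.00066. The 9 lower differences lay between -0.56 for Kdr and -0.06 for Vegfc. Because these genes were picked with their values known, nothing is read from these counts.

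At P6 the receptors Tek, Tie1, Kdr and Flt4 were higher than in adult control, and Angpt1 and Vegfb were lower. These 4 higher and 2 lower genes passed the threshold in the all-gene fit, in which 62.5% of 13398 genes passed, 31.2% as higher and 31.3% as lower. Groups did not overlap for 6 of the 10 genes (Angpt1, Tek, Tie1, Vegfb, Vegfc and Kdr) and for 70.3% of all genes. The median log2 difference was 0.20 over the 10 genes and 0.02 over all genes.

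Stabilized beta-catenin ventricles set against P6 ventricles had higher Angpt1 and Vegfb and lower Tek, Tie1, Vegfa, Kdr and Flt4. These 2 higher and 5 lower genes passed the threshold, where 72.3% of 13367 genes did, 36.5% as higher and 35.8% as lower. The same 7 genes had groups that did not overlap, as did 77% of all genes. The median log2 difference was -0.43 over the 10 genes and 0.00186 over all genes. The first 2 comparisons share the adult control libraries, the last shares a group with each of them, and the 3 sets of differences are therefore not independent.

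Total-count scaling moved the median log2 difference of all genes to 0.44 for P6 over adult control and to -0.40 for stabilized beta-catenin over P6, and to 0.02 for stabilized beta-catenin over adult control. Under that scaling the P6 differences from adult control were 0.85 for Tek, 1.13 for Tie1, 1.25 for Kdr and 1.16 for Flt4, all above the shifted median, and -1.55 for Angpt1 and -0.65 for Vegfb, below it. Stabilized beta-catenin over P6 then gave 3.78 for Angpt1 and 0.32 for Vegfb, and -0.99 for Tek, -1.46 for Tie1, -0.89 for Vegfa, -1.79 for Kdr and -1.46 for Flt4, with the same signs as under the deposited factors.

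**Figure D3:**
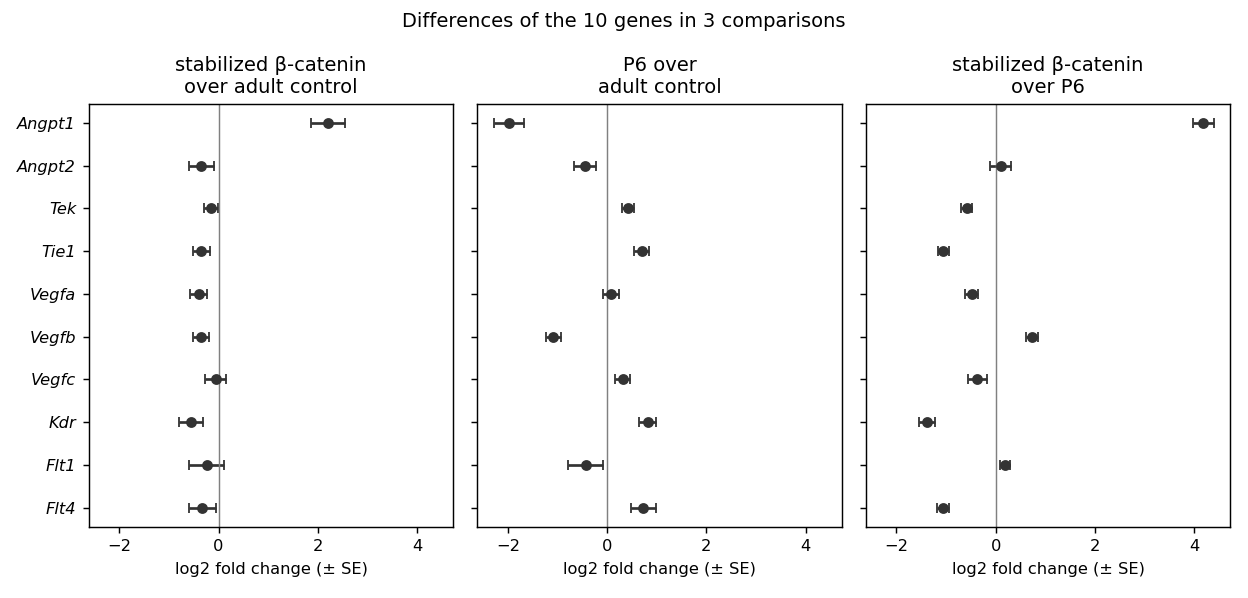
Log2 difference (horizontal axis, points ± SE) of each of the 10 genes in the comparisons of stabilized beta-catenin with adult control, P6 with adult control and stabilized beta-catenin with P6. Angpt1 lies at 2.21, -1.98 and 4.19 in these panels, beyond all 9 other genes, which stay between -1.38 and 0.82.

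Per kilobase of exon, the ligand at the top of the order differed between P6 and the adult groups. Lengths are merged exons of GENCODE M21, while the annotation used for counting is not given in the sources used here. With stabilized beta-catenin the mean normalized counts per kb were 996 ± 122 for Vegfb, 730 ± 219 for Angpt1 and 592 ± 89.4 for Vegfa, whose library ranges overlapped from each rank to the next. Tek (257), Kdr (236) and Tie1 (225) came next and overlapped likewise, followed by Flt1 (137), Vegfc (48.5), Flt4 (35.5) and Angpt2 (15.8), of which Vegfc and Flt4 overlapped. At P6 Vegfa led with 826 ± 132 per kb and Kdr (599) and Vegfb (599) overlapped. Tie1 (465), Tek (383), Flt1 (120.2), Flt4 (74.1), Vegfc (61.6), Angpt1 (39.0) and Angpt2 (14.5) followed, with an overlap between Flt4 and Vegfc alone. In adult control Vegfb led with 1271 ± 177 per kb before Vegfa with 782 ± 126, and Kdr (345), Tie1 (288) and Tek (285) overlapped in sequence. Flt1 (178) and Angpt1 (165) overlapped, as did Vegfc (49.5) and Flt4 (46.9), and Angpt2 (20.3) was the lowest there too. Angpt1 thus ranked second among the 10 genes per kb with stabilized beta-catenin, ninth at P6 and seventh in adult control.

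Ratios within a library leave out the scaling between libraries. They are not corrected for length, so they are compared between groups only. The Angpt1 to Angpt2 ratio was 53.9, 48.9 and 99.8 in stabilized beta-catenin libraries, 3.31, 3.75 and 4.28 at P6 and 14.4, 6.99 and 12.7 in adult control. The 3 groups did not overlap, and the group means were 67.5 ± 28.1, 3.78 ± 0.487 and 11.3 ± 3.87 (SD, n = 3 each). Angpt1 per Tek, the ligand over its receptor, averaged 3.22 ± 1.16 with stabilized beta-catenin, 0.113 ± 0.0247 at P6 and 0.640 ± 0.303 in adult control, again with no overlap.

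The 2 TIE receptors kept nearly the same ratio in all stabilized beta-catenin libraries, with 0.913, 0.915 and 0.921 Tie1 per Tek. This ratio was 1.36, 1.18 and 1.27 at P6 and 1.01, 1.18 and 0.955 in adult control, so stabilized beta-catenin lay below both other groups. Vegfa per Vegfb was 1.33 to 2.15 with stabilized beta-catenin, 3.01 to 4.93 at P6 and 1.33 to 2.32 in adult control, and P6 lay above both adult groups. Kdr per Flt1 ranged over 0.855 to 1.51, 3.16 to 3.70 and 1.04 to 2.28 in stabilized beta-catenin, P6 and adult control libraries. Vegfa per Kdr was 1.02 to 1.53 with stabilized beta-catenin, 0.595 to 0.737 at P6 and 0.790 to 1.53 in adult control, with P6 below both adult groups. Flt4 per Kdr averaged 0.142 ± 0.0273 with stabilized beta-catenin, 0.113 ± 0.00911 at P6 and 0.121 ± 0.0219 in adult control, and the groups overlapped.

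**Figure D4:**
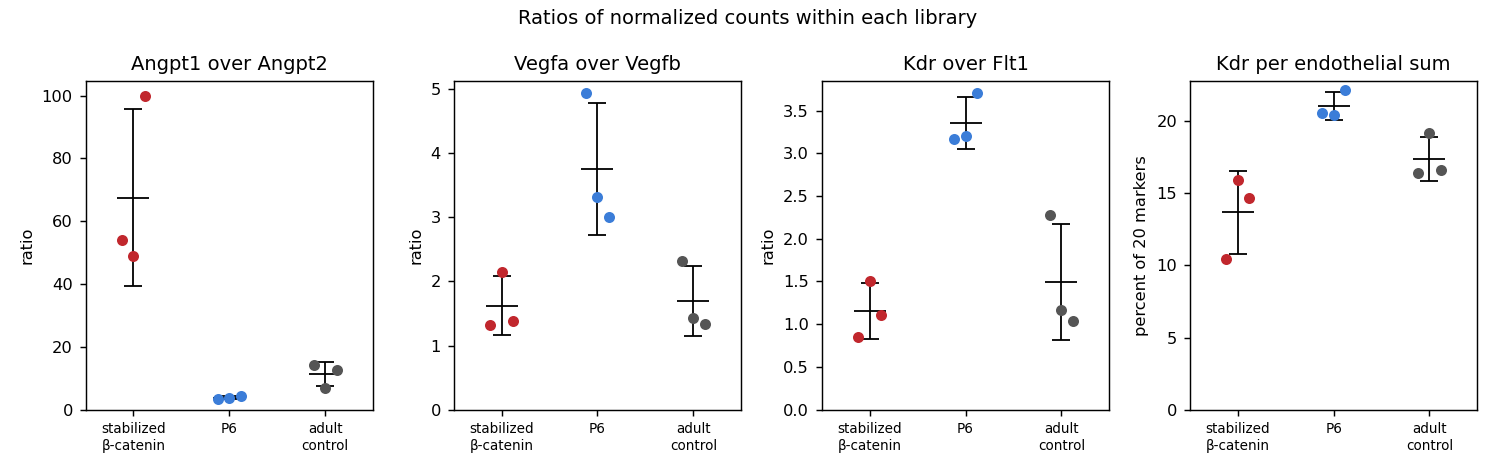
Ratios of normalized counts within each library for Angpt1 over Angpt2, Vegfa over Vegfb and Kdr over Flt1, and Kdr in percent of the sum of 20 endothelial markers; points are libraries, bars the mean ± SD of 3, and axes are linear from 0. Angpt1 over Angpt2 is 48.9 or more in stabilized beta-catenin libraries and 14.4 or less elsewhere, and Kdr over Flt1 is 3.16 or more at P6 and 2.28 or less in adults.

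Levels of the receptor genes were set beside 20 endothelial markers, none of them among the 10 genes and none at 0. The summed markers reached 14658 to 16576 normalized counts with stabilized beta-catenin, 23488 to 27554 at P6 and 15833 to 20836 in adult control. P6 thus had the larger endothelial sum as well as the higher Kdr, Tie1 and Tek. Of the 20 markers, 11 were higher and 3 lower at P6 than in adult control (median log2 difference 0.53; 15 higher and 1 lower with total-count scaling). With stabilized beta-catenin 1 was higher and 0 lower than in adult control by limma (6 lower at an unadjusted p under 0.05, 1 by edgeR and 2 by DESeq2, and 2 without adult control library 1), and the median was -0.26. Against P6, 2 were higher and 13 lower with stabilized beta-catenin (median -0.82).

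In percent of this endothelial sum, Kdr came to 10.4, 15.9 and 14.7 in stabilized beta-catenin libraries, 20.6, 20.4 and 22.2 at P6 and 16.4, 19.2 and 16.6 in adult control. The 3 groups did not overlap in this share of Kdr, though the adult groups lay close, at 15.9 against 16.4. The marker Vwf, part of the sum, stood at 2379 to 3034 normalized counts with stabilized beta-catenin and 1595 to 1611.5 in adult control. The gap between the adult groups in this share depends on Vwf being in the sum. Tie1 came to 6.50% to 7.46%, 8.59% to 9.08% and 7.16% to 8.69% in stabilized beta-catenin, P6 and adult control libraries, and Flt1 to 10.5% to 13.2%, 5.99% to 6.50% and 7.20% to 16.4%. For Tek the 3 groups overlapped, at 7.13% to 8.16% with stabilized beta-catenin, 6.68% to 7.29% at P6 and 6.83% to 8.59% in adult control. Per library, all P6 values of Tek lay above all adult ones. Of the 20 markers in the sum, 11 were themselves higher and 3 lower at P6 than in adult control. A share of this sum is therefore not read as a level per endothelial cell. Flt4 reached 1.77% to 2.07% with stabilized beta-catenin, 2.27% to 2.44% at P6 and 1.61% to 2.72% in adult control, where adult control spanned both other groups. The part of endothelial content in the receptor differences was not tested.

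Limma tests over all genes were also read for other genes of these pathways, in 5 lists that hold none of the 10 genes. In adult ventricles with stabilized beta-catenin 0 of 85 such genes tested were higher and 1 was lower than in adult control. Of all genes tested, 1.49% were higher and 0.308% lower. At an unadjusted p under 0.05, 4 of the 85 genes were higher and 10 lower, with edgeR 0 and 1 and with DESeq2 2 and 5. The medians of the 5 lists lay between -0.18 and 0.08 on the log2 scale. The lower gene was Klf4, a flow-induced transcription factor of endothelium. It stood at 253, 327 and 315 normalized counts with stabilized beta-catenin and 476, 493 and 492 in adult control (log2 difference -0.72, SE 0.14, limma adjusted p = 0.0490). Klf4 no longer passed without any 1 of adult control libraries 2 and 3 and of the 3 stabilized beta-catenin libraries (-0.79 to -0.60), nor with edgeR (-0.70), total-count scaling (-0.69), or TMM factors, a filter of 50, no intensity trend and the block.

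The pathway genes split at P6. Of 86 tested, 30 were higher and 25 lower than in adult control, where 31.2% and 31.3% of all genes were, with 44 higher and 11 lower under total-count scaling. Under that scaling 6388 of all 13398 genes tested were higher and 2316 lower. Among 16 VEGF-induced and tip cell genes, 9 were higher and 2 lower (median log2 difference 0.77, and 10 higher and 0 lower with total-count scaling). The apelin receptor Aplnr, a gene of venous and sprouting endothelium, stood at 3567 ± 291 normalized counts at P6 and 777 ± 185 in adult control (log2 difference 2.22, SE 0.18, limma adjusted p = 1.47e-05). Unc5b, a netrin receptor of tip cells, also rose (log2 difference 1.65). The calcineurin regulator Rcan1 (-0.46) and the growth factor Hbegf (-0.42) fell, with Hbegf at 0.012 and Rcan1 at -0.03 under total-count scaling. Hbegf did not pass without any 1 of the P6 libraries or adult control libraries 1 and 3 (-0.43 to -0.28), nor did Rcan1 without P6 library 1 (-0.42), P6 library 3 (-0.44) or adult control library 3 (-0.44). The block ended both calls and left 9 genes of this list higher and 0 lower. Hbegf also did not pass with DESeq2 (-0.44), without the intensity trend or with no filter, nor Rcan1 with all groups in 1 fit. Fewer genes of this list passed without a library: 5 higher and 0 lower without P6 library 1, 6 and 1 without P6 library 2, 6 and 0 without P6 library 3, and 6 and 1 without adult control library 3.

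Hypoxia response genes, of which Vegfa itself is a textbook target, were mostly lower at P6. Of 19 tested, 2 were higher and 11 lower (median log2 difference -0.61), with 3 and 13 without adult control library 1 and 5 and 7 with total-count scaling. Bnip3, a mitochondrial hypoxia target, stood at 115 ± 11.9 normalized counts at P6 and 631 ± 175 in adult control (log2 difference -2.41, SE 0.22, limma adjusted p = 2.65e-05). Egln1, the main oxygen sensor of the pathway, was at -2.28, whereas Hif1a, the oxygen-labile factor, was at 0.45 and the histone demethylase Kdm3a at 0.52, without a pass for Kdm3a when P6 library 1 (0.48) or P6 library 3 (0.50) was left out or with TMM factors (0.42). Vegfa, at 0.08, went with neither direction.

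VEGF co-receptors and processing genes were mixed at P6, with 3 of 9 higher and 2 lower. The semaphorin and VEGF-C co-receptor Nrp2 stood at 2365 ± 200 normalized counts at P6 and 1024 ± 221 in adult control (log2 difference 1.22, SE 0.16, limma adjusted p = 0.00022). Hspg2, the basement membrane proteoglycan perlecan, rose by 1.77 (SE 0.41), with 40365, 40889 and 37136 normalized counts at P6 and 5333, 19747 and 14816 in adult control. Ccbe1, which lets VEGF-C be processed and is paired with Flt4 in lymphatic growth, was at -2.32, and the glypican Gpc1 at -2.42. Nrp1, the co-receptor of Kdr, differed by 0.04 and Pgf, a ligand of Flt1, by -0.11, and neither passed. Both were named after their values were seen, as was Ptprb.

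Among 11 regulators of angiopoietin and TIE signalling, 2 were higher and 1 lower at P6 (2 and 3 without adult control library 1, 5 and 0 with total-count scaling). Mmp14, a membrane protease that can shed TIE2, stood at 1434 ± 176 normalized counts at P6 and 134 ± 24.6 in adult control (log2 difference 3.42, SE 0.16, limma adjusted p = 1.32e-06). Itga5, an integrin chain reported to bind angiopoietins, was at 1.78 and Dok2, an adaptor of activated TIE2, at -1.43, which did not pass with total-count scaling (-1.03). Dok2 was low at P6, at 20.6, 20.2 and 7.43 normalized counts. Ptprb, the endothelial phosphatase that restrains TIE2, differed by -0.14 and did not pass. Downstream of the VEGF receptors, 14 of 31 genes were higher and 9 lower (20 and 2 with total-count scaling). The nitric oxide synthase Nos3 was at 1.16 and the kinase Src at 1.17, against -2.02 for the phosphoinositide 3-kinase subunit Pik3r1 and -1.50 for the kinase Mapkapk2.

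With stabilized beta-catenin set against P6, 33 of 86 pathway genes were higher and 35 lower, where 36.5% and 35.8% of all genes were. With total-count scaling these were 15 and 47, and 2945 and 6849 of all 13367 genes tested. Of 16 VEGF-induced and tip cell genes 3 were higher and 9 lower (median log2 difference -1.07). Aplnr stood at 735 ± 345 normalized counts with stabilized beta-catenin and 3567 ± 291 at P6 (log2 difference -2.39, SE 0.27, limma adjusted p = 2.58e-05), and its ligand Apln was at -2.34. Adrenomedullin (Adm) was higher by 0.90 and Rcan1 by 1.07, and Rcan1 not past the threshold with total-count scaling (0.66). Of 19 hypoxia response genes 12 were higher and 2 lower (median 0.45, and 8 and 6 with total-count scaling), among them Bnip3 at 2.31, Egln1 at 2.04 and, lower, Hif3a at -2.37 and Kdm3a at -0.56.

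Of 9 VEGF co-receptor and processing genes, 3 were higher and 4 lower with stabilized beta-catenin than at P6, with Gpc1 at 2.69, Ccbe1 at 2.17, Hspg2 at -1.94 and Nrp2 at -1.67. Of 11 angiopoietin and TIE regulators, 4 were higher and 5 lower, and 0 and 5 with total-count scaling, under which Svep1 (0.63) and Itgav (0.42) came to 0.22 and 0.02 and did not pass. Mmp14 was at -3.30 and Itga5 at -1.72. Of 31 downstream genes 11 were higher and 15 lower (2 and 20 with total-count scaling), with Pik3r1 at 1.92, Mapkapk2 at 1.32, Nos3 at -1.61 and Src at -1.38.

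**Figure D5:**
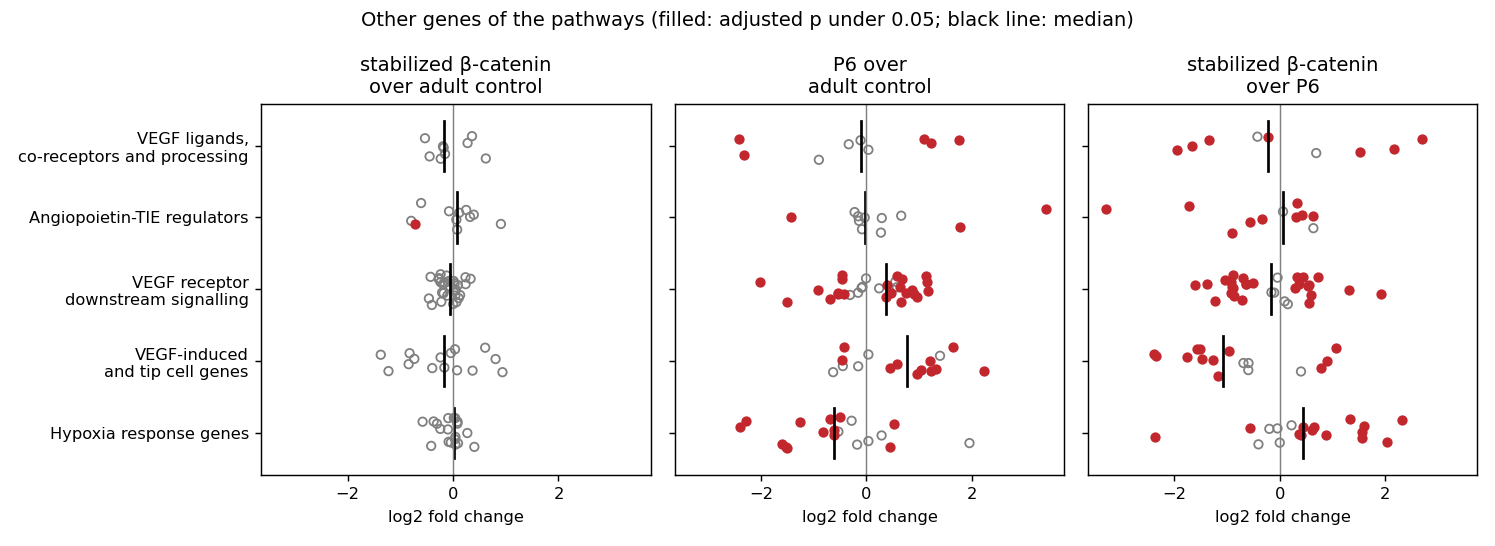
Log2 difference (horizontal axis) of each tested gene in 5 pathway lists, none of which holds any of the 10 genes, in 3 comparisons; filled points passed limma's adjusted threshold of 0.05, open points did not, and black lines are list medians. A single gene, Klf4, is filled for stabilized beta-catenin over adult control, against 55 for P6 over adult control and 68 for stabilized beta-catenin over P6.

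Markers of the other cells of the ventricle also differed between P6 and the adult groups. At P6 against adult control, 0 of 12 cardiomyocyte markers were higher and 8 lower (0 and 10 by edgeR, 0 and 12 by DESeq2, 0 and 12 without adult control library 1), with Mb, the myoglobin gene, at -2.30. All 11 macrophage markers were lower, with sums of 1189.6 to 1349.9 at P6 and 4238 to 6743 in adult control and Cd163 at -4.45. Cd163 was near the floor at P6, at 15.1, 20.2 and 13.4 normalized counts. Of 12 mural cell markers, from the pericytes and smooth muscle cells that are a known source of Angpt1, 6 were higher and 3 lower, and their sums overlapped, at 29886 to 32090.2 at P6 and 24801 to 32640 in adult control. Abcc9, a potassium channel subunit named here for its large part in these sums, was among the 3 lower markers. It stood at 8407, 8316 and 7663 normalized counts at P6 and 11545, 14085 and 13089 in adult control, and the overlap of the sums depends on it. These sums are therefore not read as mural cell content. Mcam was at 1.82 and the pericyte gene Rgs5 at -0.82. Of 12 fibroblast markers 6 were higher and 3 lower (Col1a1 4.12, Gsn -3.03). Of 5 lymphatic markers 0 were higher and 2 lower (Lyve1 -2.69), 1 higher at an unadjusted p under 0.05, with 1 and 3 without adult control library 1, and Ccl21a was listed at 0 in all libraries. Of 4 erythroid markers 3 were higher and 0 lower (Slc4a1 2.74), at an unadjusted p under 0.05 too, and the globin genes Hba-a1, Hba-a2, Hbb-b1 and Hbb-b2 were listed at 0 in all libraries.

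Between both adult groups few of these markers differed past the threshold. Of 75 markers tested with stabilized beta-catenin against adult control, 1 was higher and 0 were lower by limma, with 4 and 18 at an unadjusted p under 0.05, 1 and 1 by edgeR and 3 and 6 by DESeq2. The higher gene was Vwf, von Willebrand factor of endothelium, at 2658 ± 338 normalized counts with stabilized beta-catenin and 1605 ± 8.77 in adult control (log2 difference 0.72, SE 0.13, limma adjusted p = 0.0364). Vwf passed neither without adult control library 2 (0.72) or 3 (0.72) nor without stabilized beta-catenin library 1 (0.80), 2 (0.62) or 3 (0.74), and it did not pass with the block or without the intensity trend (0.72 in both). The mural sum was 24371 to 32266 with stabilized beta-catenin and 24801 to 32640 in adult control, an overlap. Abcc9 held 13108 to 17698 of that sum with stabilized beta-catenin and 11545 to 14085 in adult control. Over the 12 mural markers the median log2 difference was -0.37, with 9 negative and 3 positive. By limma 0 were higher and 0 lower, at an unadjusted p under 0.05 5 were lower, and 0 were lower by edgeR and 3 by DESeq2. The erythroid sums did not overlap between the adult groups, at 79.6 to 353 with stabilized beta-catenin and 465 to 778 in adult control, and of 3 markers tested 0 were lower by limma, 3 at an unadjusted p under 0.05, 0 by edgeR and 1 by DESeq2. The part of mural and other cells in the Angpt1 difference was not tested.

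With stabilized beta-catenin against P6, 9 of 12 cardiomyocyte markers (Mb 2.19) and 10 of 11 macrophage markers (Cd163 4.28) were higher and 0 of either list were lower, also at an unadjusted p under 0.05. By edgeR and by DESeq2 11 cardiomyocyte markers were higher, and 10 macrophage markers by edgeR and 9 by DESeq2, with 0 lower in each case, while total-count scaling gave 7 cardiomyocyte markers higher and 1 lower. Of 12 mural markers 3 were higher and 9 lower (Abcc9 0.94, Mcam -2.48), and of 12 fibroblast markers 4 and 6 (Gsn 3.37, Col1a1 -4.21). Of 5 lymphatic markers 3 were higher and 1 lower (Mmrn1 3.08, Prox1 -0.35), and all 4 erythroid markers tested were lower (Slc4a1 -5.54). Slc4a1 stood at 16.0, 0 and 5.33 normalized counts with stabilized beta-catenin, so the size of its difference rests on values near the floor. Prox1 did not pass with TMM factors, with all groups in 1 fit or without P6 library 1 (-0.32), P6 library 2 (-0.34) or stabilized beta-catenin library 2 (-0.27). Their part in the differences of the 10 genes was not tested.

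Genes with the most similar profile were sought for Angpt1, Kdr and Vegfb, the 3 of the 10 genes whose group means lay farthest apart. Likeness was the root mean square difference between centred log2 profiles over the 9 libraries, across 13554 genes, where a smaller value means a closer profile. Shisa3, a Wnt and growth factor antagonist, came closest to Angpt1 at 0.38, with 135 ± 7.23 normalized counts under stabilized beta-catenin, 7.65 ± 0.930 at P6 and 30.6 ± 8.65 in adult control. Myl1, a myosin light chain, followed at 0.50, with 397 ± 48.5, 30.1 ± 6.38 and 178 ± 85.5 in the same groups, and Slc9a2, a sodium/proton exchanger, at 0.54. Closest to Kdr were the kinase gene Stk10 at 0.10, with 229 ± 52.4, 550 ± 72.4 and 298 ± 58.4 normalized counts in stabilized beta-catenin, P6 and adult control ventricles, then Efr3b and Emid1 at 0.13 each. Closest to Vegfb were the phosphate transporter gene Slc20a2, the receptor gene Gpr157 and Cpox, an enzyme gene of heme synthesis, all at 0.11. This measure grows with the range of a gene. Group means spanned 4.19 for Angpt1, 1.38 for Kdr and 1.08 for Vegfb on the log2 scale. Distances are therefore not compared between these 3 genes.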

How the data were processed

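RNA sequencing of mouse cardiac ventricles was used, with samples grouped by the labels into 3 groups of 3 libraries. Per the submitters' processing notes, Bowtie2 2.0, DESeq2 and the genome build mm9 were used, and htseq-count made the counts, per the file headers. Its annotation and strand setting are not given in the sources used here. Each value of the authors' deposited table is a signal in normalized counts: reads of a gene over a library-wide factor. For P6 the authors also deposited the raw count of each gene. Multiplying by that factor gave back whole reads (100% of values within 0.001), which at P6 equalled the deposited counts in 24364 of 24391 genes matched by name, the other 27 having date-like names. Replicates differed by more than sampling noise (chi-square per degree of freedom 5.08 to 144).

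The 10 genes, the other gene lists and the tests were chosen with earlier results of these data known. A gene entered a comparison with 10 or more normalized counts in 3 or more libraries of its 2 groups. Values were tested as log2(normalized count + 1) by limma 3.58.1 in R 4.3.3 (intensity trend, two-sided), with Benjamini-Hochberg adjustment over all genes tested and a threshold of 0.05. Fold changes on this scale understate those of low genes. The variance is moderated across genes, on which p-values from 3 libraries a group depend. Tried instead were DESeq2 1.42.0 or edgeR 4.0.16 on those reads, TMM or total-count scaling, pseudocounts of 0.5 or 5, a filter of 50 or none, no trend, a joint fit of all groups, the replicate number as a block, and leaving out each library. The procedure was also run on simulated counts. Their spread was set by a formula and not estimated from these libraries, so error rates here were not measured. Besides the 10 genes, Axin2 and Ctnnb1, the text names the genes past the threshold with the largest change in each list and direction, up to 2 in the 5 pathway lists and 1 in the 7 marker lists, and the 3 closest profiles, and says where it names others. The promoter sequences are from RefSeq, and exon lengths are from GENCODE M21, both on GRCm38.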

Additional observations from a re-analysis of the deposited data

How the results depend on the processing

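The differences of the 10 genes were recomputed under 17 alternatives in each comparison. Of 510 values, 492 stayed within 1 replicate SD of the reported value, 18 moved by more, all with total-count scaling, and 0 differences past the threshold turned sign. Of 1154 values of the other named genes, 1103 kept their direction and side of the threshold, 46 no longer passed, 3 passed anew and 2 turned sign, both with total-count scaling for P6 over adult control (Axin2 from -0.31 to 0.12 and Hbegf to 0.012). With stabilized beta-catenin against adult control, 233 genes passed (193 higher, 40 lower), 564 with DESeq2 (363 and 201), 516 with all groups in 1 fit (345 and 171), 154 with a filter of 50, and 61 to 402 with a library left out. These were 402 without adult control library 1 (260 and 142), 127 and 96 with adult control library 2 or 3 left out, and 76 and 61 with stabilized beta-catenin library 2 or 3 left out. The 1 pathway gene in that comparison became 7 with DESeq2, 5 with all groups in 1 fit, 3 with the replicate block, 0 with TMM factors, total-count scaling, no trend and a filter of 50, and 0 to 3 with a library left out. The cause was not tested. With total-count scaling 6388 genes were higher and 2316 lower for P6 over adult control (4182 and 4198 with the deposited factors), and 2945 and 6849 for stabilized beta-catenin over P6 (4882 and 4784). Libraries of the same number correlated in their deviations from the group means by -0.12 to 0.196, and not every library correlated best with its own number. The numbers were therefore not used as pairs in the main fits. Such correlations cannot show that libraries of the same number were handled apart. With the replicate block 7929, 275 and 9410 genes passed for P6 over adult control, stabilized beta-catenin over adult control and stabilized beta-catenin over P6, against 8380, 233 and 9666 without it. Depth limits Angpt2, with 36 to 40 reads per P6 library.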
